A study of Mus musculus with 310 samples.

Results

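The Wnt pathway was read in single cells of mouse tail epidermis through 41 of its genes, out of 14068 genes in the table. They were taken by name and not by their values. There were 7 Wnt ligands, 2 genes for ligand secretion, 12 receptors and co-receptors, and 2 ubiquitin ligases that clear receptors. The rest were 2 genes listed as secreted antagonists, 6 genes of the destruction complex, 4 transducers of the signal and 6 nuclear factors. Roles are as listed and were not tested. The 310 cells came from female mice of mixed CBA and C57BL/6 background that carried Lrig1-EGFP-ires-CreERT2 together with the reporter Rosa26-fl/STOP/fl-tdTomato, and all were given 1 application of hydroxytamoxifen to the tail. Cells that expressed Lrig1 at that time, which marks the follicle junctional zone, and their progeny thus carry tdTomato. The study asked whether stem cells keep a memory of a wound with age. Its labels place 145 cells in the group 38w (replicate RepI with 70 cells on plates C114 and C118, and RepL with 75 cells on C119) and 165 in 38wUW (RepM with 82 cells on C128, RepN with 83 on C129), with animals pooled within an experiment. All cells carry the same time, 38 weeks, and the labels do not say from which event it is counted. The labels do not spell out UW or say which group had been wounded, so group differences are given as 38w against 38wUW with no reading of direction.

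Wnt ligands are lipid-modified proteins that depend on Porcn for the lipid and on Wls for their release, and they act at short range. When a ligand engages a Frizzled receptor with Lrp5 or Lrp6, Dishevelled proteins (Dvl1 to Dvl3) restrain the destruction complex of Axin, Apc, glycogen synthase kinase 3 and casein kinase 1, so that β-catenin (Ctnnb1) escapes degradation and joins Tcf and Lef factors on DNA, displacing Tle co-repressors. In skin the pathway is known for the formation of hair follicles and for the switch of follicle stem cells from rest to growth, and secreted Wnt antagonists are known in the resting stem cell niche of the bulge.

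Each cell was given the class whose marker genes had the highest mean z-score, with no Wnt gene among the markers. Follicle cells (201) were those scored as bulge (48), junctional zone (66), infundibulum and duct (66) or sebaceous gland (21), and surface epidermis cells (50) were those scored as differentiated interfollicular epidermis. The 59 basal-scored cells entered neither side, since basal keratins and integrins are made in both. For 65 cells (21.0%), 51 of them follicle cells, the best score led the next by less than 0.2, and the bulge class had 1 of its own markers among its 10 leading genes, so the classes are score ranges and not isolated types. The keratin gene Krt14 had reads in 279 cells, Krt5 in 231 and Lrig1 in 113. Reads per cell ranged from 11711 to 721564 (median 61294). Plate C114 stood apart, with a median of 31.8% of reads in ribosomal protein genes against 3.60% to 6.80% on the other plates, and 11 of its wells were named by 2 cells each. Names of 15 cells carry an unexplained suffix, IDTILL or MBULK, and their removal changed no call of a member. The study uses the term mini-bulk for libraries of many sorted cells. The labels do not say whether the MBULK wells held 1 cell, and they are counted as cells here.

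Levels are CPM, the reads of a gene over the summed cells of a replicate scaled to a common library total, with library sizes adjusted by the TMM method. Levels of single cells, levels listed class by class and levels of cell type markers were instead scaled to the raw total. Values of the same cells can therefore differ between the tests and the lists by class. A part of the pathway was barely detected, with reads of 13 of the 41 members in under 10% of cells. Compared between genes per kilobase of the longest coding transcript, averaged over the 4 replicates, the highest members were Tcf7l2 at 853 CPM per kb, the ubiquitin ligase gene Znrf3 at 238, the casein kinase gene Csnk1a1 at 132, the ligand carrier gene Wls at 72.4, Ctnnb1 at 63.2 and Gsk3b at 49.4. Among ligands Wnt4 led with 22.9 CPM per kb, followed by Wnt10a with 11.5, while Wnt5b and Wnt10b stood at 0.25 and 0.28. Among receptors Fzd6 (18.4), Fzd1 (13.9) and Fzd7 (12.9) led, and Fzd8 at 0.12 was the lowest member. The ranks of close neighbours are not firm, because replicates of 1 gene spread widely. Wnt10a, for example, stood at 78.8, 15.6, 12.4 and 6.90 CPM over RepI, RepL, RepM and RepN.

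**Figure D1:**
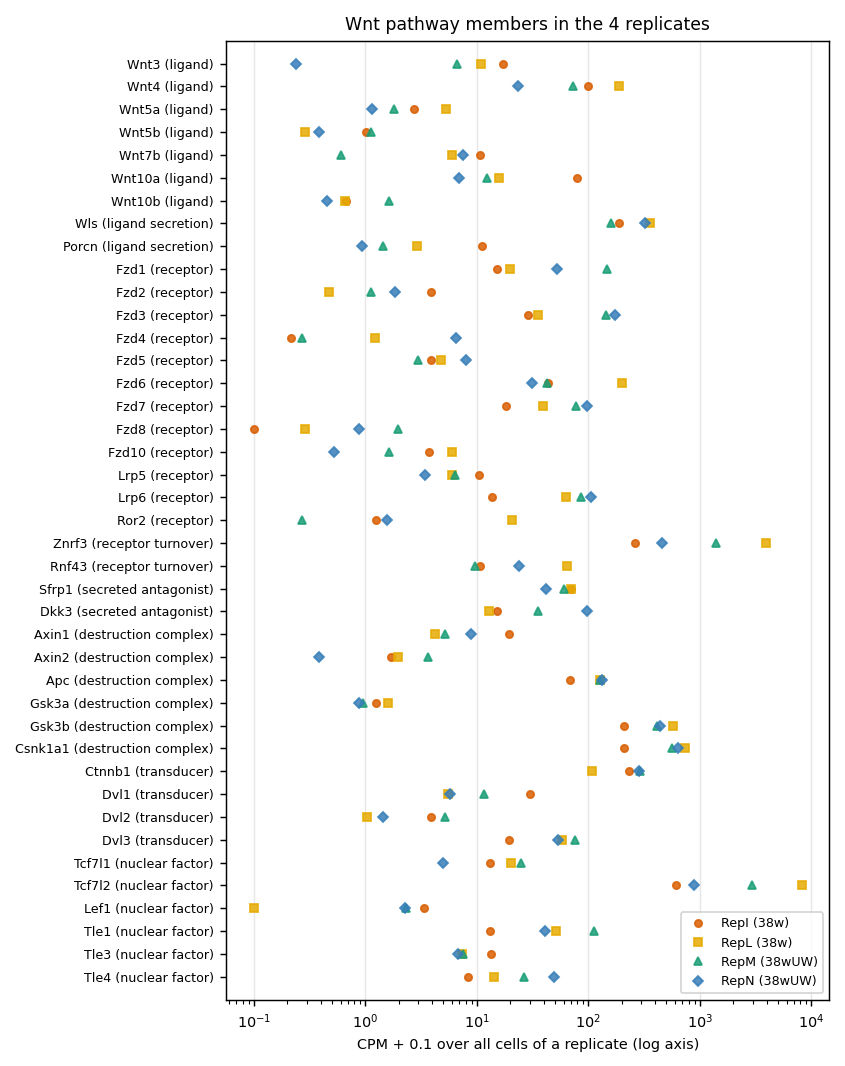
Level of each of the 41 members in the 4 replicates, as CPM + 0.1 over all cells of a replicate on a log axis, with colours and shapes for replicates and members ordered by role. Members of 1 role span up to several powers of 10, and Tcf7l2 and Znrf3 spread most between plates among the abundant members.

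The 2 most abundant members need care. Tcf7l2 and Znrf3 had reads in all 310 cells, as did 45 genes in all, and their reads hardly followed the depth of the cell. Over the 310 cells, which share plates, Spearman's rho between reads and the total of the cell was -0.06 for Tcf7l2 and -0.01 for Znrf3, where the 2483 genes with at least 2000 reads had a median rho of 0.31. Within plates rho ranged from 0.07 (C129) to 0.63 (C119) for Tcf7l2 and from 0.15 (C129) to 0.70 (C119) for Znrf3. For Csnk1a1 it ranged from 0.41 (C118) to 0.84 (C129). The level differed between plates, which outside RepI are the same as the replicates. The median cell had 579 CPM of Tcf7l2 on C114, 669 on C118, 12735 on C119, 4958 on C128 and 1243 on C129. Znrf3 had the same order, with 221, 283, 5695, 2258 and 684 CPM. A further 7 genes found in every cell moved with both, at a Pearson r with Tcf7l2 of 0.911 or more, among them Pecam1, a marker of endothelial cells, while the endothelial gene Kdr had reads in 8 cells. The source of this shared pattern was not tested, and levels of Tcf7l2 and Znrf3 are given below with that limit. Wnt4 correlated with Tcf7l2 at r = 0.57. Its median over cells was 234 CPM on C119 and 108 on C128, against 43.6 on C114, 37.9 on C118 and 24.6 on C129. Levels of Wnt4 are given with the same limit.

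**Figure D2:**
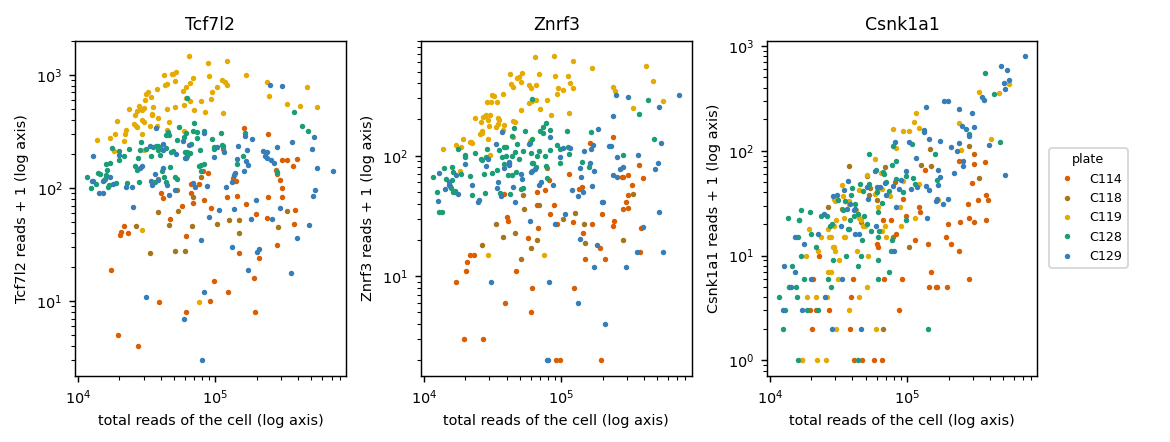
Reads + 1 of Tcf7l2, Znrf3 and, for contrast, Csnk1a1 in each of 310 cells against the total reads of the cell, both on log axes, with colours for plates. Csnk1a1 rises with depth over all cells (Spearman's rho 0.645), whereas Tcf7l2 and Znrf3 form a band for each plate, highest on C119. Within C119 all 3 rise with depth (rho 0.63 for Tcf7l2, 0.70 for Znrf3 and 0.75 for Csnk1a1).

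Axin2 and Lef1, widely used as readouts of β-catenin signalling, were near the floor. Axin2 had 49 reads in 26 of 310 cells and Lef1 73 reads in 22 cells. By replicate, Axin2 stood at 1.59, 1.86, 3.56 and 0.28 CPM in RepI, RepL, RepM and RepN, and Lef1 at 3.30, 0, 2.20 and 2.18. The share of thinned cells with an Axin2 read was 0 of 39 in bulge, 0 of 57 in the junctional zone, 4 of 64 in infundibulum and duct, 2 of 20 in the sebaceous gland, 1 of 46 in surface and 2 of 51 in basal cells, too few at this depth to order the classes. The 250 bases before the start of Axin2 and of Lef1 (RefSeq, GRCm38.p6, plus strand, first listed start) are printed below. They lie at chr11:108920099-108920348 for Axin2 and at chr3:131110047-131110296 for Lef1. The TCF/LEF core CTTTG, or CAAAG on the other strand, is in capitals. DNA outside such promoter windows was not searched for sites of either gene.

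Axin2: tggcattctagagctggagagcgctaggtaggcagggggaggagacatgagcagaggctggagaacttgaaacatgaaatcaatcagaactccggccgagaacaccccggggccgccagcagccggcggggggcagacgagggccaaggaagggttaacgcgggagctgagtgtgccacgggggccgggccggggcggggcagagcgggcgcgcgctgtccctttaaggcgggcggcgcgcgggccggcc

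Lef1: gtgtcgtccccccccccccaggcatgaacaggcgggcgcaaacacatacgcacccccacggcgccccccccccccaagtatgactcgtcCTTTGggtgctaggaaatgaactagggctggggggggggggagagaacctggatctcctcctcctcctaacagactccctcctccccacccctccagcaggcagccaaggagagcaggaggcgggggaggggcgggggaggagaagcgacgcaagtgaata

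Neither window held a full match (CTTTGAT or CTTTGAA, either strand), which 7.48% of 32851 promoter windows of that length held. The core, which a full match contains, occurred once before Lef1 and not before Axin2, against 48.6% of windows. Of the 25 members with a window, 2 held a full match, Wnt5b and Gsk3a, a share of 8% where 8.63% of all genes did. These are matches of letters, and no binding was measured.

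The first comparison asked how the pathway differs between the follicle and the surface that Lrig1 progeny also populate. No member passed the test, and the largest difference was that of Dkk3, a secreted protein of the Dickkopf family. Reads of each class were summed per replicate and compared with edgeR's quasi-likelihood test with the replicate as a block (n = 4 pairs). Of 8597 genes tested, 29 passed an adjusted p of 0.05 (0.337%), 13 higher and 16 lower in follicle cells. Of the 41 members, 26 had enough reads to be tested and 0 passed, with 5 at an unadjusted p under 0.05, where 832 of all genes tested were. Among the 26, 20 had higher values in the follicle (76.9%), as did 59.3% of all genes tested. The median log2 fold of the members was 0.72, beside 0.26 over all genes tested. DESeq2 on the same sums, without the filter on low counts, called 516 of 14062 genes fitted. Of the 41 members, all fitted, it called 2, Dkk3 and the receptor gene Fzd3.

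Dkk3 (chr7:112116017-112159057, minus strand) had 24.5, 21.7, 32.1 and 88.2 CPM over RepI, RepL, RepM and RepN in follicle cells, and 0, 1.04, 0 and 6.37 in surface cells. All 4 follicle values lay above all 4 surface values. The log2 fold was 5.11 ± 1.17 (SE), with an adjusted p of 0.110 in edgeR, 0.000329 in DESeq2 and 0.0207 when every cell had the same weight. With basal cells added to the surface the fold was 1.63 (adjusted p = 0.461), the lowest of its alternatives. The other gene listed as an antagonist was Sfrp1 (chr8:23411502-23449632, plus strand), whose product binds Wnt ligands outside the cell. It had 121, 44.7, 56.1 and 38.1 CPM in follicle cells and 0, 41.6, 33.7 and 0 in surface cells. Here the lowest follicle value lay below the highest surface value, and the log2 fold of 3.25 ± 1.74 did not pass (adjusted p = 0.618, edgeR). It was 0.78 with basal cells added to the surface, and 1.77 without RepI. In RepL 95% of the surface reads of Sfrp1 came from 1 cell.

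Receptors and the genes of their turnover did not pass either. Fzd7 (log2 fold 2.92 ± 1.34) and Fzd1 (2.51 ± 1.44) had folds like that of Fzd3 here, and Lrp6 was higher in 4 of 4 replicates (1.05 ± 0.70). Fzd7 was reversed in RepN, with 79.1 CPM in follicle and 160 in surface cells. Fzd1 was reversed in RepL (12.8 and 72.7 CPM), where 1 cell gave 75.7% of the surface reads. Fzd3 had 62.1, 65.3, 146 and 150 CPM in follicle cells of RepI, RepL, RepM and RepN, and 0.58, 5.19, 24.1 and 179 in surface cells. The pattern was reversed in RepN alone, where 1 of 6 surface cells gave 83.2% of the surface reads. The log2 fold was 2.91 ± 1.05 (adjusted p = 0.366, edgeR), and 0.0360 in DESeq2. Fzd6, a receptor best known for planar polarity in skin, showed no such tendency, with a log2 fold of 0.19 ± 0.67 (adjusted p = 0.960, edgeR) and follicle values of 40.99, 255, 36.7 and 26.2 CPM against 84.6, 64.4, 38.5 and 26.4, and its sign turned without RepL. Rnf43, a ubiquitin ligase gene that lowers Frizzled at the membrane, had 5.89, 111, 8.84 and 22.4 CPM in the follicle against 1.17, 12.5, 4.82 and 0. It was higher in 4 of 4 replicates, at 2.96 ± 1.15 (adjusted p = 0.413, edgeR), although 1 cell held 87.2% of the follicle reads in RepL. Its paralogue Znrf3, subject to the limit above, had a log2 fold of -0.41 ± 0.30 (adjusted p = 0.740, edgeR), with 265, 3302, 1235 and 353 CPM in the follicle and 268, 6107, 1197 and 602 at the surface.

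Ligands and secretion genes had small or uneven differences. Wnt4 had 56.5, 158, 63.1 and 17.3 CPM in follicle cells and 117.9, 294, 50.6 and 31.0 in surface cells, a log2 fold of -0.64 ± 0.52 (adjusted p = 0.773, edgeR). Wnt10a had 47.9, 7.46, 10.4 and 5.87 CPM against 34.4, 11.4, 2.41 and 0, with higher follicle values in 3 of 4 replicates and a log2 fold of 1.19 ± 1.14 (adjusted p = 0.812, edgeR). Its direction depended on the basal cells, whose addition to the surface gave -0.83. Wls, required by every Wnt for release, had 207, 205, 135 and 271 CPM against 70.6, 225, 152 and 149, a log2 fold of 0.53 ± 0.48 (adjusted p = 0.803, edgeR) that was below 0 when basal cells were added to the surface. Porcn was too low to be tested, at 5.40, 3.55, 1.04 and 0.73 CPM in follicle cells and 6.42, 5.19, 0 and 0 in surface cells.

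Inside the cell the casein kinase gene Csnk1a1, whose product primes β-catenin for degradation, had the lower values in the follicle. They were 167, 587, 500 and 504 CPM in follicle cells and 282, 977, 698 and 995 in surface cells, lower in 4 of 4 replicates, with a log2 fold of -0.74 ± 0.32 (adjusted p = 0.481, edgeR). The other kinase gene with high reads, Gsk3b, had 301, 525, 377.2 and 362 CPM against 100.96, 579, 224 and 514, with no common direction (log2 fold 0.41 ± 0.44, adjusted p = 0.837, edgeR). Ctnnb1 had 369, 82.0, 266 and 238 CPM against 99.2, 140, 222 and 401, and its log2 fold of 0.12 ± 0.54 (adjusted p = 0.971, edgeR) turned sign without RepI. Dvl3 had 20.6, 14.9, 75.0 and 46.3 CPM against 17.5, 13.5, 12.04 and 46.4, so that its 0.67 ± 0.80 (adjusted p = 0.860, edgeR) came from RepM.

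Of the nuclear factors, the co-repressor gene Tle1 was higher in the follicle in 4 of 4 replicates, with 21.8, 91.9, 115 and 37.2 CPM against 12.8, 6.23, 4.82 and 20.9. Its log2 fold was 2.36 ± 0.95 and did not pass (adjusted p = 0.430, edgeR). Tcf7l2, with the limit above, had 660, 6960, 2546 and 717 CPM against 575, 13041, 2634 and 967 (log2 fold -0.30 ± 0.27, adjusted p = 0.804, edgeR). Its differences between the sides were small beside those between plates. Of the members not given in full, Fzd2 and Fzd8 had no reads in any surface sum, and Wnt3 had its higher values at the surface, with 0, 0.36, 5.20 and 0.13 CPM in follicle cells and 37.3, 15.6, 12.04 and 0 in surface cells (log2 fold -3.78 ± 1.82, adjusted p = 0.554, edgeR).

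**Figure D3:**
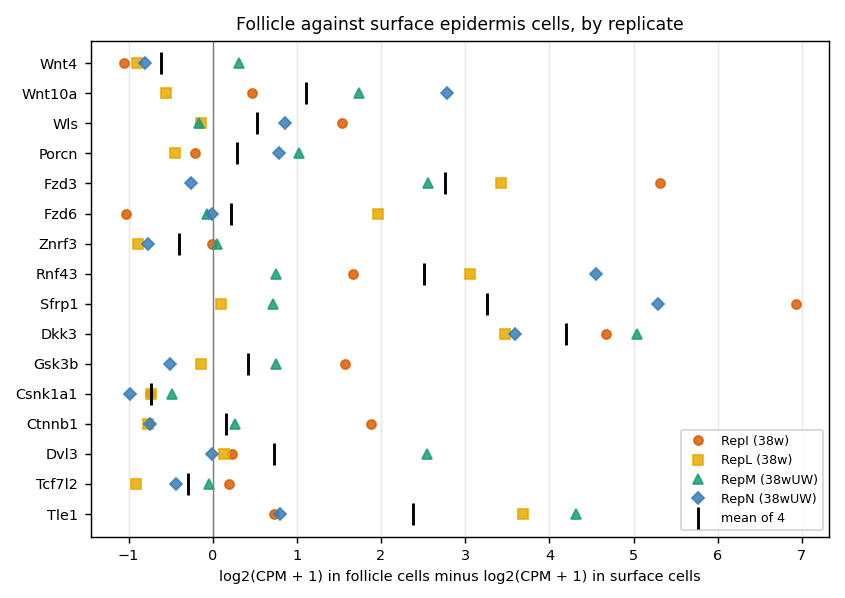
Difference between follicle and surface cells in log2(CPM + 1) for 16 members, 1 point for each replicate and a bar at the mean of 4. All 4 points of Dkk3, Rnf43, Tle1 and Sfrp1 lie above 0 and all 4 of Csnk1a1 below, while most other members have points on both sides.

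Of 62 further Wnt pathway genes in the table (87 were listed), 43 could be tested between the sides and 0 passed (smallest adjusted p 0.0864, edgeR), with 10 at an unadjusted p under 0.05, 8 of them higher in the follicle. Their median log2 fold was 0.52. Fibroblast markers, of which 6 of 7 were in the table, moved with the sides. Their summed level was 9.45 to 27.6 CPM in the follicle sums of the 4 replicates and 1.33 to 10.1 CPM in the surface sums. Over RepI, RepL, RepM and RepN 3, 3, 5 and 6 of the markers were read in the follicle sums and 2, 2, 3 and 1 in the surface sums. Melanocyte markers stood at 23.2 CPM over all follicle cells and 9.35 over all surface cells. The part of these markers in the differences was not tested.

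Reads of 1 gene in a sum can rest on 1 deep cell, so the share of cells with at least 1 read was compared as well, after each cell was thinned to 20000 reads. That left 180 follicle and 46 surface cells, of which RepM and RepN gave 5 surface cells each. In 11 of 41 members the share was higher in the follicle in all 4 replicates and in 0 it was lower in all 4. Over 13886 genes found in these cells, 13.3% were higher and 3.28% lower in all 4. An exact sign-flip permutation test over 4 replicates cannot give a two-sided p below 0.125, which each of the 11 reached. They were Wnt5a, Fzd1, Fzd2, Fzd3, Fzd5, Fzd7, Rnf43, Dkk3, Dvl3, Tle1 and Tle4. For some this order carries little: Fzd2 was read in 5 of 180 follicle cells (2.78%) and 0 of 46 surface cells, which allow a share of up to 6.52%. Fzd7 was read in 96 of 180 follicle cells (53.3%, exact 95% interval 45.8 to 60.8) and 4 of 46 surface cells (8.70%, 2.42 to 20.8). The pooled shares weigh replicates unequally, since most of the follicle cells came from RepM and RepN and most of the surface cells from RepI and RepL. By replicate (RepI, RepL, RepM, RepN) the share of Fzd7 was 46.4, 41.9, 49.1 and 65.2% in the follicle and 0, 5, 0 and 60% at the surface, so that it was close in RepN. Fzd3 was read in 17.9, 29.0, 50.9 and 50% of follicle cells and 0, 5, 20 and 40% of surface cells, a mean difference of 20.7 percentage points. For Dvl3 the mean difference was 25.9 points and for Tle1 26.5, higher in 4 of 4 replicates. Dkk3 was read in 42 follicle cells (23.3%, 17.4 to 30.2) and in 0 of 46 surface cells, which allows a share of up to 6.52%. Intervals and limits cover counting error only, since amplified reads are not independent molecules.

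Within the classes, members differed in where they were read, and these shares are descriptions of cells pooled over replicates. Bulge-scored cells had the highest shares of Dkk3, in 27 of 39 cells (69.2%), and of Sfrp1, in 20 of 39 (51.3%). Dkk3 was read in 13 of 57 junctional zone cells (22.8%) and 9 of 51 basal cells (17.6%), but in 2 of 64 infundibulum and duct cells and in 0 of 20 sebaceous cells, a limit wide at that number. Sfrp1 was also read in 18 of 51 basal cells (35.3%) and 7 of 20 sebaceous cells (35%), and in 1 of 64 infundibulum and duct cells. Those last cells instead had the highest shares of Fzd3 (40 of 64, 62.5%) and Tle1 (34 of 64, 53.1%), and the highest CPM of each in 3 of 4 replicates, except for Fzd3 in RepL (sebaceous cells) and Tle1 in RepM (bulge cells). Fzd7 was similar in bulge (61.5%) and infundibulum and duct (60.9%).

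The ligands Wnt10a and Wnt3 are both known in epidermis and hair follicle. Wnt10a was read in 21 of 51 basal cells (41.2%, exact 95% interval 27.6 to 55.8) and 16 of 57 junctional zone cells (28.1%, 17.0 to 41.5), and in 0 of 64 infundibulum and duct cells. As CPM of the raw total, its level in basal cells was 124, 28.0, 39.1 and 15.6 over RepI, RepL, RepM and RepN. In infundibulum and duct cells it was 0.62, 0, 0 and 0. Basal cells had the highest level of the 6 classes in RepI, RepL and RepM, and in RepN the junctional zone had 17.0 CPM. On that scale Wnt3 had 24.2, 22.6, 13.0 and 0 CPM in basal cells and 28.3, 12.4, 12.2 and 0 in surface cells. In the junctional zone it had 0, 0, 17.6 and 0.51, with no common order among the classes. Wnt3 had no read in any bulge or infundibulum and duct cell. By contrast Wnt4 was read in every class, in 53.8% (bulge) to 78.4% (basal) of cells, and Wls in 43.5% (surface) to 82.5% (junctional zone). The share of Wnt4 varied more between replicates, RepI, RepL, RepM and RepN having it in 50, 96.8, 81.8 and 39.4% of follicle cells. At the surface it was 37.5, 100, 60 and 40%. Wnt5a, a ligand of β-catenin-independent signalling, reached its highest share in sebaceous cells, in 3 of 20.

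**Figure D4:**
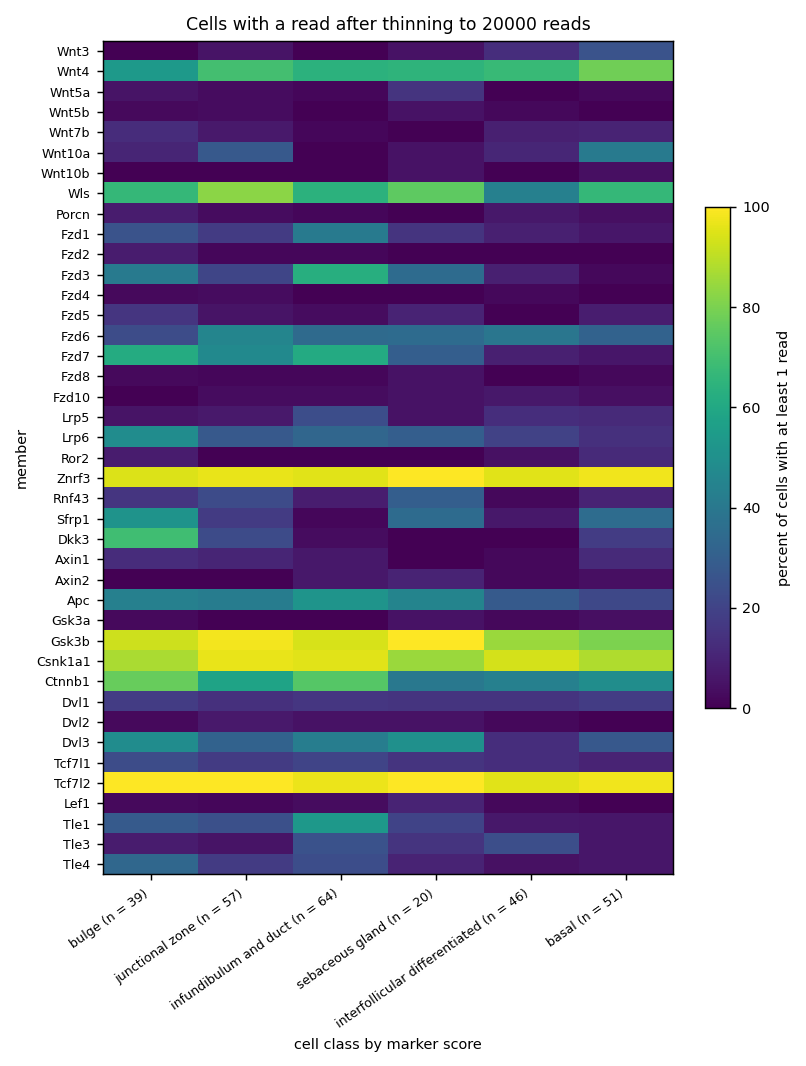
Percent of cells with at least 1 read of each member (vertical axis) in each of 6 classes (horizontal axis, with the number of cells), after thinning to 20000 reads and on a colour scale from 0 to 100%. Dkk3 and Sfrp1 are brightest in bulge cells, Fzd3 and Tle1 in infundibulum and duct cells and Wnt10a in basal cells, while Tcf7l2, Znrf3, Csnk1a1 and Gsk3b are bright in every class.

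A test within the follicle compared bulge cells with the other follicle cells, by the same method. Sfrp1 was higher in the bulge and was the 1 member past the threshold, of 27 tested. Of 8905 genes tested 37 passed (0.415%), 8 higher and 29 lower in the bulge, and the median log2 fold over all genes tested was -0.36 against 0.24 for the members. Sfrp1 had 637, 257, 336 and 115 CPM over RepI, RepL, RepM and RepN in bulge cells (336 ± 220, SD, n = 4), and 18.6, 20.1, 12.3 and 18.8 in other follicle cells (17.5 ± 3.47). Every bulge value lay above every other value. The log2 fold was 4.04 ± 0.78 (SE), with an adjusted p of 0.0232 in edgeR. RepI rested on 3 bulge cells, 1 of which held 50.1% of the reads of Sfrp1. Without RepI the fold was 3.62 (adjusted p = 0.162), without RepL 4.12 (0.112) and without RepM 3.77 (0.102), so the call was lost in each, and it was also lost when cells near the class boundary were left out (3.21, adjusted p = 0.288).

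Dkk3 had the same order of values without passing. Its bulge values were 108, 160, 103 and 231 CPM in RepI, RepL, RepM and RepN, and 9.11, 4.57, 25.4 and 60.1 in other follicle cells. The ranges did not overlap, and the log2 fold was 3.09 ± 0.91 (adjusted p = 0.235, edgeR). DESeq2, which called 410 genes, gave 3.13 with an adjusted p of 0.00439. The co-receptor gene Lrp6 was higher in 4 of 4 replicates at 1.91 ± 0.91 (adjusted p = 0.731, edgeR) and Fzd6 lower in 4 of 4 at -2.31 ± 1.12 (adjusted p = 0.743, edgeR). For Lrp6, 1 cell gave all bulge reads of RepI, 83.3% of those of RepL and 79.2% of those of RepM, and for Fzd6 1 cell gave 92.3% of the follicle reads of RepL. Wls, with a log2 fold of 0.09 ± 0.61, had bulge values above the rest of the follicle in 2 replicates and below in 2.

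Fibroblast markers moved with the bulge in 3 of 4 replicates. Their summed level in bulge cells was 3.80, 88.0, 75.0 and 26.8 CPM over RepI, RepL, RepM and RepN, and 10.3, 19.3, 5.37 and 8.86 in other follicle cells. Of the 6 markers, 1 was read in the bulge cells of RepI, 2 in those of RepL, 4 in those of RepM and all 6 in those of RepN, and Col1a1 and Pdgfra were at 0 in the first 3. Of the 48 bulge cells, 27 had no read of any fibroblast marker, among them 18 of the 28 with an Sfrp1 read. Those 27 cells held 72.2% of the Sfrp1 reads of the class. For Dkk3 it was 21 of 34 cells and 57.4% of reads. Over all cells, Col1a1 was read in 12, Col1a2 in 8, Pdgfra in 6, Vim in 6, Dcn in 22 and Lum in 66. Markers this sparse cannot clear a cell, and their part in the bulge values was not tested.

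**Figure D5:**
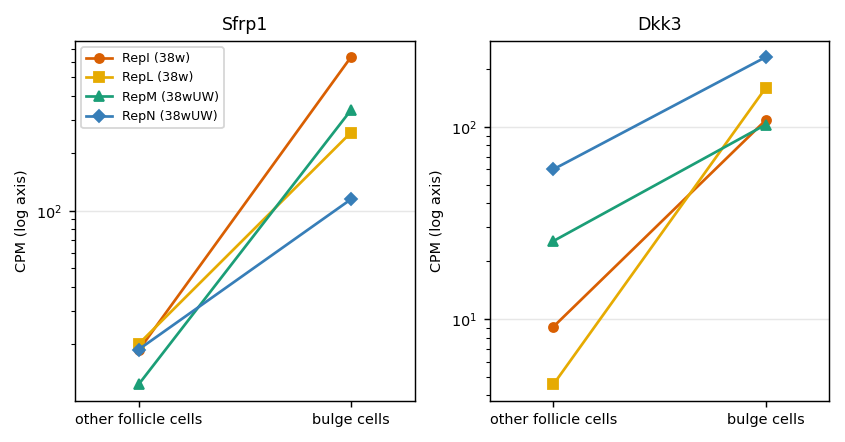
CPM of Sfrp1 (left) and Dkk3 (right) in other follicle cells and in bulge cells of each replicate, on log axes, with a line joining the values of 1 replicate. Each of the 4 lines climbs in both panels, from 12.3 to 20.1 up to 115 to 637 CPM for Sfrp1 and from 4.57 to 60.1 up to 103 to 231 CPM for Dkk3.

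The groups 38w and 38wUW were compared over all cells of a replicate (n = 2 against 2), and no member passed. Of 11760 genes tested 0 passed in edgeR (0%), with 949 at an unadjusted p under 0.05, and DESeq2 called 81 genes, none a member. Of 36 members tested, 5 had an unadjusted p under 0.05, all with an adjusted p of 0.617. Wnt10a was among them, at 78.8 and 15.6 CPM in 38w and 12.4 and 6.90 in 38wUW (log2 fold 2.30 ± 1.01). So was Ror2, a receptor for Wnt5a, at 1.14 and 20.8 against 0.17 and 1.48 (3.62 ± 1.53). Ror2 was read in 17 cells, 1 of which held 43.75% of its reads. Fzd1 had 15.01 and 19.7 CPM in 38w and 147 and 52.1 in 38wUW (-2.52 ± 0.93), Fzd3 28.9 and 35.3 against 145 and 173 (-2.31 ± 0.86), and Dkk3 15.1 and 12.8 against 35.6 and 96.4 (-2.24 ± 0.93). With RepL left out 4 members passed, Wnt10a (3.11), Fzd1 (-2.65), Fzd3 (-2.39) and Lrp6, out of 41 tested, beside 1215 of 12932 genes. With RepI left out 1 of 38 passed, Ror2 (4.52), beside 169 of 12233 genes. Each time a lone 38w replicate was assumed to vary like the others.

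Mitochondrial genes took medians of 4.28% and 9.69% of the reads of a cell in the 38w replicates and of 14.6% and 18.3% in those of 38wUW, and their part in the group values was not tested. The classes sampled also differed between the groups. Follicle cells made up 40% of RepI and 44% of RepL in 38w, and 82.9% of RepM and 86.7% of RepN in 38wUW, and basal cells 35.7%, 29.3%, 8.54% and 6.02%. The part of these shares in the values over all cells was not tested. In follicle cells alone, the log2 fold of Fzd3 was -1.31 ± 0.84, of Dkk3 -1.50 ± 0.96 and of Wnt10a 1.68 ± 1.18, whereas that of Fzd1 was -2.84 ± 0.98, with 18.1 and 14.5 CPM in 38w and 173 and 61.0 in 38wUW. None passed, at adjusted p values of 0.679 for Fzd1 and above for the others (edgeR). Ror2 had too few reads in follicle cells to be tested, with 0 and 1.21 CPM in 38w and 0.20 and 1.49 in 38wUW. Of 10719 genes tested in follicle cells 0 passed (0%), with 786 at an unadjusted p under 0.05, 1 of them among the 32 members tested. DESeq2 called 64 genes, none a member. With RepL left out Fzd1 passed, and with RepI left out Fzd6 and Tcf7l2, but each of these fits held 1 replicate of 38w. Without RepI that replicate was RepL, where 1 cell gave 92.3% of the follicle reads of Fzd6. Tcf7l2 is subject to the limit above. Each plate belonged to 1 group, so plate and group cannot be told apart.

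Whether the follicle and surface difference itself varied between the groups was tested as an interaction, a test chosen after the data had been seen. Of 8597 genes 0 passed in edgeR, with 371 at an unadjusted p under 0.05, 3 of them among the 26 members tested. The 3 were Frizzled genes that did not share a sign, where positive values mean a larger follicle excess in 38w. They were Fzd7 at 5.71 ± 1.68 (adjusted p = 0.954), Fzd1 at -5.19 ± 2.08 and Fzd3 at 3.77 ± 1.62. These values rest on few surface cells, as 1 cell gave 75.7% of the surface reads of Fzd1 in RepL and 83.2% of those of Fzd3 in RepN, and 3 cells gave all those of Fzd7 in RepN.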

How the data were processed

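Single tdTomato-positive keratinocytes were sorted into 96-well plates and sequenced by a modified Smart-seq2 protocol, which has no molecular identifiers. The authors quantified reads with Salmon 0.13.1 against the Ensembl mouse transcriptome (GRCm38/mm10), and deposited them as estimated counts per gene for each cell, not scaled (3.60% of values were not whole). The study's methods drop genes seen in under 5 cells, and cells under 1000 genes or above 50% of mitochondrial reads. The lowest cell here had 1996 genes and the highest mitochondrial share was 46.2%, while 13956 of 14068 genes reached 5 cells. No doublet caller was run, as wells of single cells were meant to hold 1 cell. For the wells with the suffix MBULK the labels do not say so.

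Counts were scaled to 10000 per cell and log2-transformed for class scores only. Sums per replicate and class (at least 3 cells) were rounded, and edgeR 4.0.16 (R 4.3.3) was run with TMM, filterByExpr, its quasi-likelihood F-test and Benjamini-Hochberg adjustment over all genes tested at a threshold of 0.05, with the replicate as a block where both classes came from the same replicates. DESeq2 1.42.0 was an alternative. Both classes of a pair held cells of the same replicate label. The replicates hold pooled animals, and p-values measure the spread between these pools. For shares of cells with a read, 277 cells with at least 20000 reads were thinned to that number and 33 were left out. Intervals are exact Clopper-Pearson 95% intervals, and a count of 0 allows up to 3 cells. Gene positions and lengths are from GENCODE vM21, promoter sequence from RefSeq.

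The members and the lists were chosen with earlier results of these data known. Full values are given for members past the threshold in the comparison of sides or of bulge cells and for the 2 members of each role with the highest mean CPM. Other members named were chosen after their values were seen. The scripts were tested on simulated data. Alternatives were other tests, filters, scalings, class rules and units, leaving out replicates and plate C114.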

Additional observations from a re-analysis of the deposited data

Results flagged for a closer look

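Dvl3, a Dishevelled gene, had 1 replicate far from the others in the difference between follicle and surface cells. On the log2(CPM + 1) scale the difference was 2.54 in RepM, against 0.22 in RepI, 0.13 in RepL and -0.01 in RepN. The surface sum of RepM held 7 cells. Chance alone sets 1 sample apart in this way in about 1 of 20 groups, and 16 members were looked at.

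For Porcn, which attaches the lipid to Wnt ligands, the difference between follicle and surface cells ran in opposite directions in the 2 groups. Its mean was -0.33 in 38w (-0.21 in RepI, -0.45 in RepL) and 0.91 in 38wUW (1.03 in RepM, 0.79 in RepN). In 38wUW the surface sums had no Porcn read, so the difference could not fall below 0. The follicle sums there held 6 reads in RepM and 11 in RepN. Chance alone can also oppose the signs of 2 groups this small, and as many members were looked at as for Dvl3. The difference between the groups was not tested, since Porcn had too few reads to enter the fit.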

How the results depend on the processing

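In the comparison of follicle and surface cells 29 of 8597 genes and 0 of 26 members passed. DESeq2 called 516 of 14062 genes and 2 of 41 members (Fzd3 and Dkk3). No filter on low counts gave 203 of 14062 genes and 1 of 41 members (Dkk3). Equal weight of cells gave 178 genes and 2 members (Fzd3 and Dkk3), and thinned cells 133 and 1 (Fzd3). Calls numbered 6 without plate C114, 17 with cells near the class boundary left out, 14 with scores divided by their SD, 54 with plates as units and 5 to 52 with 1 replicate left out, with 0 members in each. Higher genes made up 44.8% of calls in the main analysis, 72.3% in DESeq2 and 7.14% with scores divided by their SD.

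Within the follicle, where 37 genes and 1 member (Sfrp1) passed, DESeq2 called 410 genes and 2 members (Sfrp1 and Dkk3), no filter 165, thinned cells 67 and equal weight 2 members (Sfrp1 and Dkk3). With 1 replicate left out 6 to 35 genes and 0 to 1 members passed. Without plate C114, and with plates as units, 6 genes and 0 members passed, and 18 and 0 with cells near the boundary left out, so that the call of Sfrp1 depended on these choices. Without the replicate block, 42 genes passed between the sides and 53 in the bulge, and no call of a member changed.

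Between 38w and 38wUW, where 0 genes passed, DESeq2 called 81 genes, no filter 1, and plates with the batch tag or the alternative batch tag as a replicate block 1 and 4. Leaving out 1 replicate gave 0 to 1215 genes and 0 to 4 members: 169 with Ror2 without RepI, and 1215 with Wnt10a, Fzd1, Fzd3 and Lrp6 without RepL, where the remaining 38w replicate was assumed to vary like those of 38wUW. In follicle cells DESeq2 called 64, no filter 3, and leaving out 1 replicate 0 to 1357 genes and 0 to 2 members, namely 345 with Fzd6 and Tcf7l2 without RepI and 1357 with Fzd1 without RepL.

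Of 371 single-gene values under alternatives 341 kept their direction and their side of the threshold and 12 turned sign, all between follicle and surface and none past the threshold. With basal cells added to the surface Wnt10a was -0.83, Wls -0.39 and Dvl3 -0.0027. With equal weight Fzd6 was -0.30, Ctnnb1 -0.060 and Tcf7l2 0.011. With thinned cells Znrf3 was 0.075, Ctnnb1 -0.17 and Tcf7l2 0.15, and without sebaceous cells Ctnnb1 was -0.030. Leaving out 1 replicate, Fzd6 ran from -0.36 to 0.64 and Ctnnb1 from -0.41 to 0.48. The causes were not tested. Reads from under 10% of cells limit what can be said of 13 members.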
